A study of Mus musculus with 8 samples.

Results

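The genes described here encode the cytochrome P450 enzymes and the nuclear receptor Nr1i2, measured in brown adipose tissue and quadriceps muscle of mice. Members were taken by gene symbol: each probe whose symbol starts with Cyp, a digit and a further letter or digit, plus Por, Nr1i2 and Nr1i3. The rule found 89 of the 24607 probes on the array, for 71 of its 15967 named genes. Of these, 88 probes stood for 70 P450 genes and 1 for Nr1i2, and no probe was named Por or Nr1i3, which were not analysed here. Total RNA of C57BL/6J mice was hybridised to 8 single-colour Illumina bead arrays, with 2 arrays in each of 4 groups. The groups were brown fat at room temperature, brown fat after 4 h at 4 °C, quadriceps muscle at room temperature, and quadriceps muscle after the same cold exposure. All mice ate laboratory chow, and the labels name no allele, age or sex. The cold-exposed mice had no food or bedding during the exposure. The labels do not say whether the mice at room temperature were also without food, so the effects of cold and of food withdrawal cannot be told apart. The labels also do not say whether the 2 arrays of a group came from separate mice, so the p-values measure the spread between these arrays, which may be technical.

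Cytochrome P450 enzymes are heme proteins that insert oxygen into lipophilic substrates, and the microsomal ones take their electrons from the reductase Por. The families named by low numbers act mainly on drugs and other foreign compounds in the liver, where the receptors Nr1i2 (PXR) and Nr1i3 (CAR) switch many of them on. Others work on endogenous lipids: Cyp4 and Cyp2j enzymes on fatty acids and eicosanoids, Cyp26 enzymes on retinoic acid, Cyp24a1 and Cyp27b1 on vitamin D, and Cyp51 and Cyp27a1 on sterols. Brown fat burns fatty acids to make heat through the mitochondrial protein Ucp1, and cold activates it through its sympathetic nerves.

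Between 10468 and 11280 probes per array gave a detection p under 0.05, and the 2 arrays of a group correlated at 0.9774 to 0.9955 over their log2 intensities. The number of arrays limits the precision. Each labelled tissue carried its defining markers, Ucp1 at a log2 intensity of 14.41 to 14.68 in brown fat and Acta1 at 14.68 to 14.83 in muscle, but 2 arrays stood apart from their partners. The summed linear intensity of the 13 measured muscle fibre markers was 884.8 on the first brown fat array of the cold group, against 84320 on the second and 69930 to 84990 at room temperature. On the first cold array 7 of the 13 were above background, and on each of the other brown fat arrays all 13. On the second muscle array of the cold group Ucp1 reached 14.45, against 9.15 on the first and 5.90 to 6.16 at room temperature. The 7 adipocyte markers summed to 31660 and 11710 on the 2 cold muscle arrays and to 8696 and 9058 at room temperature. Of 14 measured hepatocyte markers, 8 were at background on every array, Alb among them. In whole tissue, fewer cells of a type and less RNA per cell cannot be told apart.

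Most P450 probes were not above background in either tissue. A probe counted as above background, and entered the tests, if both arrays of 1 or more groups gave it a detection p under 0.05. By that rule 22 of the 89 probes were tested, or 24.7% against 48.5% of all probes, and they stood for 18 genes. Of the 67 untested probes, 64 were at background on all 8 arrays, and the other 3 (Cyp2s1, Cyp39a1 and Cyp46a1) passed on single arrays only. The count of probes above background on both arrays was 19 in brown fat at room temperature, 18 in brown fat in the cold, 15 in muscle at room temperature and 16 in muscle in the cold.

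The drug-metabolising families held the most probes on the array, and 7 of their 45 were tested. All 7 Cyp3a probes and 14 of the 15 Cyp2c probes stayed out, as did Cyp1a1 and Cyp1a2, the classic targets of the dioxin receptor. The single Nr1i2 probe was at background on every array, at log2 intensities of 5.16 to 5.31. The fatty acid families had 9 of 20 probes tested, and 4 of the 7 Cyp4f probes were among them. Of the 13 sterol and steroid probes 3 were tested, and those of the adrenal and gonadal enzymes Cyp11a1, Cyp11b2, Cyp17a1 and Cyp21a1 and of the bile acid enzymes Cyp7a1, Cyp7b1 and Cyp8b1 were not. None of the 4 vitamin D probes (Cyp24a1, Cyp27b1 and Cyp2r1) was tested, nor was Cyp26a1, while its relative Cyp26b1 was above background on all 8 arrays. Across the tested set, 13 probes of 11 genes were above background on all 8 arrays.

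**Figure D1:**
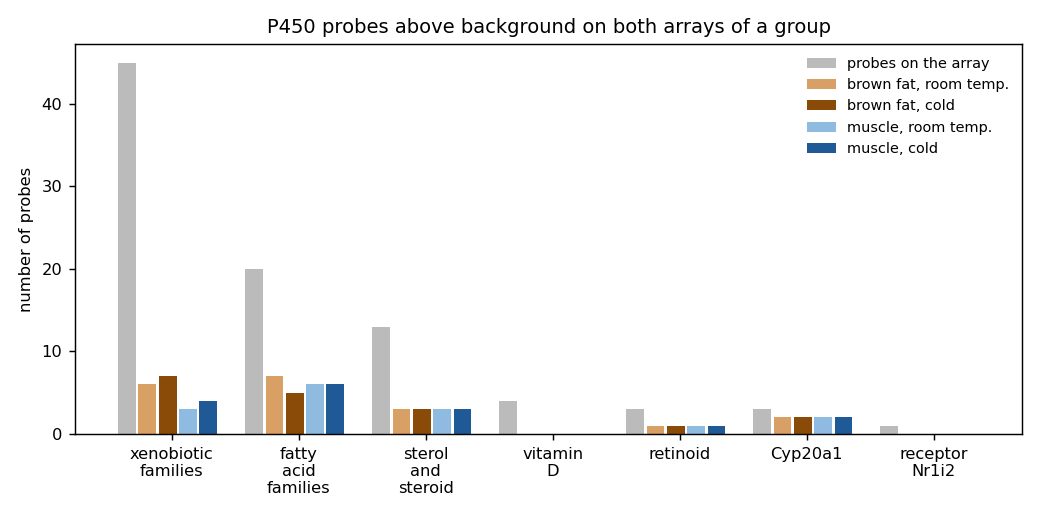
Number of member probes in each class on the array (grey) and above background on both arrays of each of the 4 groups (coloured bars), the vertical axis being a count. The xenobiotic families have 45 probes on the array, and 3 to 7 of them were above background in a group.

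After 4 h of cold, brown fat had higher Cyp2b10 and Cyp1b1 and lower Cyp26b1 and Cyp4f16. In counts, 3 tested member probes (2 genes) rose and 2 fell, against 7.79% of all 11946 tested probes that rose and 7.49% that fell at a limma adjusted p under 0.05. The call on 5 of 22 member probes stands beside 15.3% of all probes in either direction. The median log2 change over the tested members was -0.052, and over all tested probes 0.016. In muscle 1 member probe rose and 1 fell, where 1.56% of all probes rose and 1.88% fell (3.43% in either direction). The groups did not overlap for 15 of the 22 member probes in brown fat and for 10 in muscle, against 58.3% and 53.9% of all probes.

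**Figure D2:**
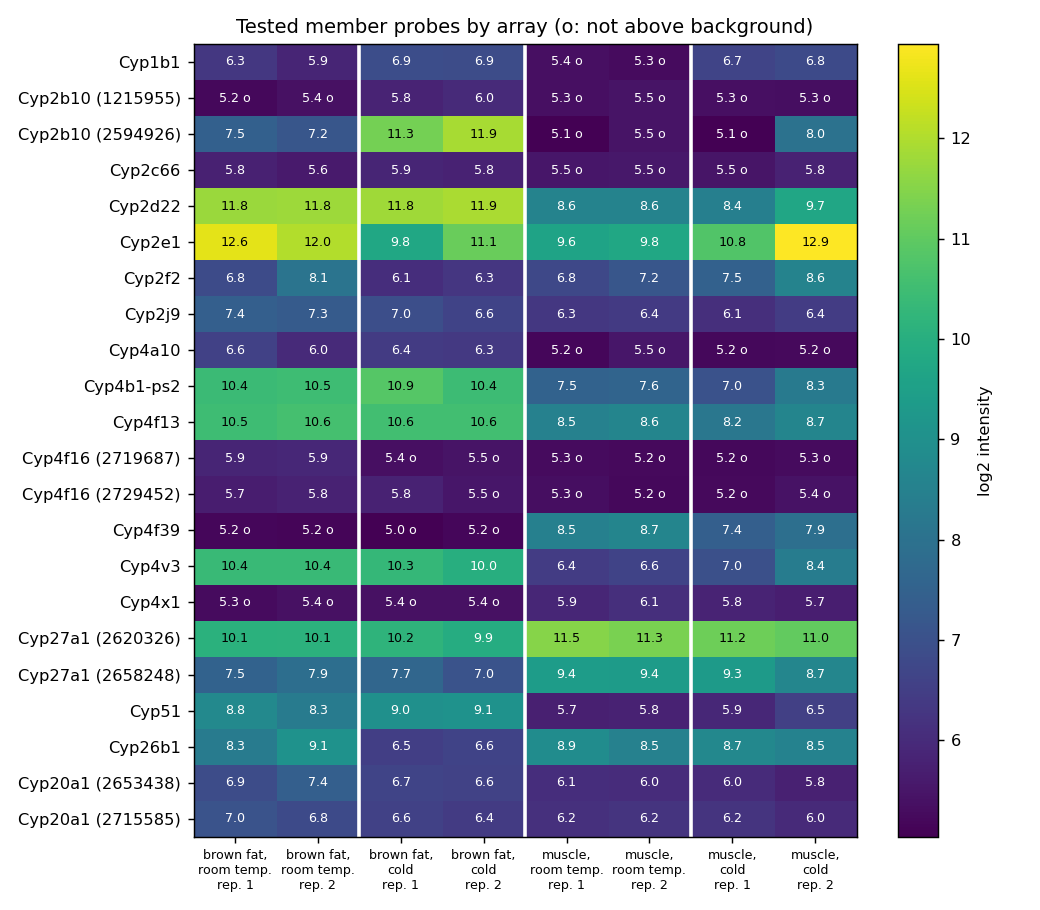
Log2 intensity (colour and printed value) of the 22 tested member probes (rows) on the 8 arrays (columns, white lines between the groups); o marks an array on which the probe was not above background. Cyp2b10 (probe ILMN_2594926) runs from 7.15 to 11.90 in brown fat, and Cyp26b1 is lowest on the 2 cold brown fat arrays, at 6.52 and 6.63.

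Cyp2b10, a drug-metabolising P450 that CAR induces in mouse liver, showed the largest rise among the tested members. Probe ILMN_2594926 gave 7.47 and 7.15 in room-temperature brown fat and 11.28 and 11.90 in the cold, on the log2 scale. Before normalization, the same arrays gave intensities of 286.6, 210.8, 2085.9 and 4154.5. Both cold arrays were far above both room-temperature arrays. The log2 change was 4.28 (SE 0.81, 95% interval 2.37 to 6.19), or 19.4-fold, with a limma adjusted p of 0.016. That SE comes from a spread shared by all 4 groups. The SD between arrays was 0.23 in room-temperature brown fat, 0.44 in cold brown fat and 2.1 in cold muscle. Over 18 alternative settings the change ran from 3.81 to 4.59, and the call was lost in 5. The change was as large without the first cold array, the one with the low muscle fibre sum, at 4.59, although the adjusted p was then 0.054. With 1 brown fat array left out at a time the adjusted p missed 0.05 in each case: 0.0661 and 0.0935 without the first and second room-temperature arrays, and 0.0546 without the second cold array. The log2 change in those fits was 4.44, 4.12 and 3.97.

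A second Cyp2b10 probe, ILMN_1215955, was much dimmer and not above background at room temperature. It read 5.20 and 5.39 at room temperature and 5.84 and 5.98 in the cold, with no overlap. Its change passed the test (log2 0.61, SE 0.12, adjusted p = 0.0161), and since the lower group is only a bound, the rise was at least 1.25-fold. The call was lost without the first room-temperature array (0.52) and without the second cold array (0.54). It was also lost under median scaling and with only the groups compared fitted. The probes rose by different amounts, and the transcripts each one binds were not analysed here. The other Cyp2b genes on the array, Cyp2b9, Cyp2b13 and Cyp2b19, are close relatives of Cyp2b10, and their probes were at background on all arrays.

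In muscle the bright Cyp2b10 probe read 5.07 and 5.47 at room temperature, both not above background, and 5.06 and 8.02 in the cold. Only the second cold array was above background, the array that also carried Ucp1 at 14.45. The log2 change of 1.27 (SE 0.81) had an adjusted p of 0.441. It became 2.75 (adjusted p = 0.00327) without the first cold array and -0.22 (adjusted p = 0.84) without the second. The part of brown fat transcripts in this value was not tested. The dim probe was at background on all 4 muscle arrays, at 5.32 to 5.47. The difference between the cold effects of the tissues was 3.01 on the log2 scale (SE 1.15, 95% interval 0.31 to 5.71, adjusted p = 0.179) for the bright probe. It was 4.49 (adjusted p = 0.00946) without the second cold muscle array and 1.53 (adjusted p = 0.0645) without the first. For the dim probe the difference was 0.69 (SE 0.17, adjusted p = 0.0696).

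The promoter windows of Cyp2b10, Cyp26b1 and Cyp1b1, 3 of the 4 genes that passed in cold brown fat, are shown to place them in the genome. They come from RefSeq (GRCm38.p6) and give the 250 bases before the annotated start, 5′ to 3′ on the gene's strand. Capitals mark matches to the motifs named after the sequences. Cyp2b10 lies at chr7:25897408-25897657 on the plus strand, Cyp26b1 at chr6:84593811-84594060 and Cyp1b1 at chr17:79715062-79715311, both on the minus strand.
Cyp2b10: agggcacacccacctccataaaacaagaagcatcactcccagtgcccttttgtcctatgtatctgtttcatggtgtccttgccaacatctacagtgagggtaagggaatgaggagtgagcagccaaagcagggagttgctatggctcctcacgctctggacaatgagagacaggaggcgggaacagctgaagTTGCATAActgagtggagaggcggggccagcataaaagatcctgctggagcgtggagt
Cyp26b1: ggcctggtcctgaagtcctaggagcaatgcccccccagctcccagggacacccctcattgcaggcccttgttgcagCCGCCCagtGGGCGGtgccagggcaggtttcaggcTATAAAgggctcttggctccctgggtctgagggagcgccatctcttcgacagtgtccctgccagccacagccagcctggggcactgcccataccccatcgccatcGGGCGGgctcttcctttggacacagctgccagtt
Cyp1b1: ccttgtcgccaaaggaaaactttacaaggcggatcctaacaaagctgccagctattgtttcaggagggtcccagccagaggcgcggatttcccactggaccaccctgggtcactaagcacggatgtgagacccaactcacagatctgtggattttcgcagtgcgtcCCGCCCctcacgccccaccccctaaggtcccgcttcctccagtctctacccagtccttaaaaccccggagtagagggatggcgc
Motifs were searched on both strands of a window that also took the 50 bases after the start. The Cyp2b10 window held 1 match to the C/EBP-like pattern TTGCNNAA, starting at base -58 before the start. The Cyp26b1 window held a TATAAA at -139 and GGGCGG on either strand at -174, -165 and -34, and the Cyp1b1 window held GGGCGG on the opposite strand at -84. Over all 32851 windows in the RefSeq table, the C/EBP-like pattern occurred in 10.8%, the TATA box (TATAAA) in 13.6% and the GC box (GGGCGG) in 35.7%. The half-site AGGTCA (16.3% of windows), the cyclic AMP element TGACGTCA (1.79%) and TTGCGTG (1.16%) had no match in the 3 windows. TTGCGTG is 1 form of the dioxin response element, and shorter forms were not searched. Of the 18 tested genes 14 had an entry. Among those 14, the C/EBP-like pattern and the TATA box each occurred in 3, the GC box in 7 and the half-site in 1.

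Cyp1b1, which acts on estradiol, retinoids and aromatic hydrocarbons, rose in both tissues. In brown fat it read 6.32 and 5.87 at room temperature and 6.92 and 6.87 in the cold. Both cold arrays lay above both room-temperature arrays (log2 change 0.79, SE 0.16, 1.73-fold, adjusted p = 0.0184). The call was lost without the second room-temperature array (0.57, adjusted p = 0.0707), without the first cold array (0.77, adjusted p = 0.0767), and under median scaling in place of quantile normalization (0.59, adjusted p = 0.933).

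In muscle Cyp1b1 was not above background at room temperature, at 5.36 and 5.28, and read 6.66 and 6.80 in the cold. The log2 change was 1.41 (SE 0.16, adjusted p = 0.00829), a rise of at least 2.09-fold. The cold arrays carried Ucp1 at 9.15 and 14.45, and the part of brown fat transcripts in this value was not tested. Without the first or second room-temperature muscle array the change was 1.45 or 1.37, with adjusted p of 0.061 and 0.0921, and under median scaling it was 1.44 with an adjusted p of 0.0937. The effects in the 2 tissues differed by -0.62 (SE 0.22, adjusted p = 0.159), which did not pass the test.

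Cyp26b1, which clears retinoic acid, fell in brown fat, and it was the 1 tested member for which the difference between the cold effects of the tissues passed. Its brown fat levels were 8.32 and 9.07 at room temperature and 6.52 and 6.63 in the cold. The log2 change was -2.12 (SE 0.25, 95% interval -2.70 to -1.54), 4.35-fold lower, with an adjusted p of 0.0037. The call held in all 19 alternative settings, in which the change ran from -2.50 to -1.61.

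In muscle Cyp26b1 read 8.89 and 8.50 at room temperature and 8.72 and 8.53 in the cold, with overlapping groups (-0.07, SE 0.25, adjusted p = 0.917). The cold effect in brown fat minus that in muscle was -2.05 (SE 0.35, 95% interval -2.88 to -1.23, adjusted p = 0.0354), where 1.63% of all probes passed as higher and 1.72% as lower (3.35% in either direction). None of the 22 member probes passed as higher in this comparison, and at an unadjusted p under 0.05 there were 3. The call on the difference was lost in 11 of 18 alternatives. Of single arrays, it was lost with 6 of the 8 arrays when each was left out in turn, and kept without the first room-temperature brown fat array (-2.43, adjusted p = 0.0467) or the first cold muscle array (-1.96, adjusted p = 0.0375). The adjusted p was 0.0771 without the second room-temperature brown fat array, 0.0865 and 0.0533 without the first and second cold brown fat arrays. It was 0.0943 and 0.136 without the first and second room-temperature muscle arrays, and 0.0522 without the second cold muscle array.

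Cyp2e1, which oxidises ethanol and small ketones, was bright in both tissues. In brown fat the room-temperature arrays gave 12.62 and 12.04 and the cold arrays 9.75 and 11.12. In muscle they gave 9.62 and 9.75, and 10.81 and 12.94. The groups did not overlap in either tissue, and the direction was opposite. Neither change passed the test: -1.90 in brown fat (SE 0.69, adjusted p = 0.11) and 2.19 in muscle (SE 0.69, adjusted p = 0.144). The second cold muscle array, with 31660 as its adipocyte marker sum, was above all brown fat arrays for Cyp2e1. Without the first cold muscle array the muscle change was 3.25 (adjusted p = 0.0147), and without the second it was 1.13 (adjusted p = 0.392). The brown fat change kept its size in both cases, with an adjusted p of 0.0273, and was -1.21 (adjusted p = 0.4) without the first cold brown fat array. The difference between the cold effects was -4.09 (SE 0.97, adjusted p = 0.0696), and -5.15 (adjusted p = 0.00761) without the first cold muscle array or -3.02 (adjusted p = 0.0714) without the second.

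Cyp2f2, a lung-enriched enzyme known for activating naphthalene, had the same arrangement. In brown fat the room-temperature arrays gave 6.84 and 8.08 and the cold arrays 6.07 and 6.30. In muscle they gave 6.75 and 7.15, and 7.50 and 8.56. The changes were -1.27 (SE 0.46, adjusted p = 0.107) and 1.08 (SE 0.46, adjusted p = 0.251), and neither passed. Their difference was -2.35 (SE 0.65, adjusted p = 0.0946), and -2.89 (adjusted p = 0.0375) without the first cold muscle array or -1.82 (adjusted p = 0.163) without the second. The brown fat change ran from -1.89 (adjusted p = 0.0561) without the first room-temperature array to -0.65 (adjusted p = 0.434) without the second, and the difference from -2.97 (adjusted p = 0.0905) to -1.73 (adjusted p = 0.187).

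The other xenobiotic members did not pass in the cold. Cyp2d22, a mouse relative of the human drug enzyme CYP2D6, was bright in brown fat at 11.76, 11.79, 11.82 and 11.93, and its change there was 0.10 (95% interval -0.72 to 0.92). In muscle it read 8.56, 8.58, 8.45 and 9.72, the last on the second cold array, for a change of 0.52 (SE 0.35, adjusted p = 0.465). Without the first cold muscle array that change was 1.15 (adjusted p = 0.00392), and without the second it was -0.12 (adjusted p = 0.784). Cyp2c66 stayed between 5.48 and 5.86 on all arrays, near the lowest detected signal of 5.42 to 5.71.

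**Figure D3:**
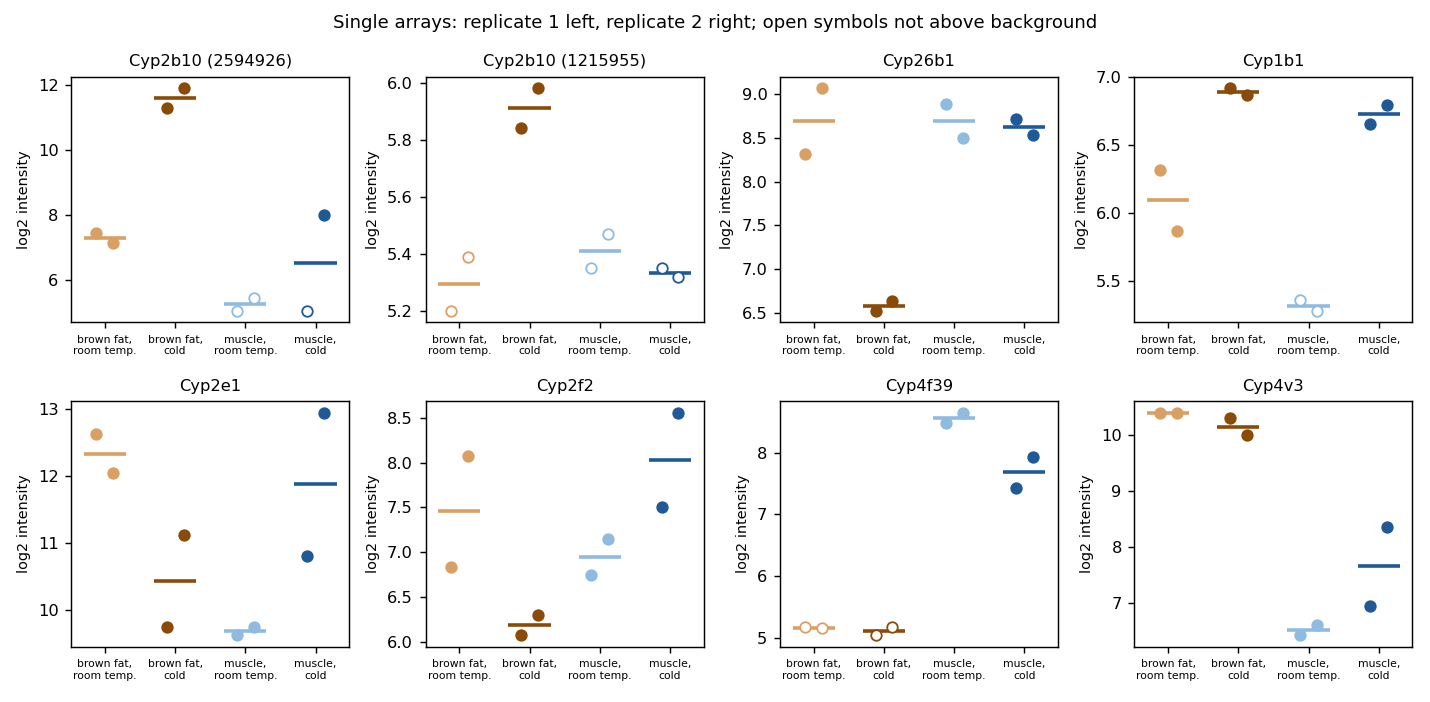
Log2 intensity of 8 member probes on single arrays, with replicate 1 at the left and replicate 2 at the right of each group; bars are group means of 2 arrays and open symbols are arrays on which the probe was not above background. In cold muscle the arrays stand apart for Cyp2b10 (5.06 and 8.02), Cyp2e1 (10.81 and 12.94) and Cyp4v3 (6.96 and 8.36), and lie close for Cyp1b1 (6.66 and 6.80).

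Among the fatty acid families, Cyp4f39 fell in muscle and Cyp4f16 in brown fat. Cyp4f39, an omega-hydroxylase of very long chain fatty acids known from skin, was at background on all 4 brown fat arrays, at 5.04 to 5.18. In muscle it read 8.48 and 8.65 at room temperature and 7.43 and 7.93 in the cold. Both cold arrays were lower (log2 change -0.88, SE 0.17, 1.85-fold lower, adjusted p = 0.0419). The call sat near the threshold and was lost in 11 of 18 alternatives. The values were -0.97 (adjusted p = 0.163) and -0.80 (adjusted p = 0.248) without the first and second room-temperature muscle arrays, and -0.63 (adjusted p = 0.0518) without the first cold one. Without any 1 brown fat array the change was still -0.88, with adjusted p of 0.0823 for each room-temperature array and 0.0573 for each cold array. Without the second cold muscle array the difference between the tissues, 0.83 (adjusted p = 0.107) over all arrays, was 1.08 (adjusted p = 0.0443).

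Cyp4f16, an omega-hydroxylase family member, was near background. Probe ILMN_2719687 gave 5.87 and 5.93 in room-temperature brown fat and 5.36 and 5.47, not above background, in the cold. The fall was at least 1.25-fold (log2 change -0.48, SE 0.10, adjusted p = 0.0217). The other tested Cyp4f16 probe read 5.68 and 5.81 against 5.79 and 5.52 and did not pass (-0.09, adjusted p = 0.725), and the difference between the probes was not tested. The first probe's call was lost without the first (-0.52, adjusted p = 0.0674) or second (-0.45, adjusted p = 0.107) room-temperature brown fat array, without the first cold one (-0.43, adjusted p = 0.0958), and under median scaling (-0.51, adjusted p of 1).

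Cyp2j9, a member of the fatty acid families, gave 7.42 and 7.30 in room-temperature brown fat and 6.95 and 6.62 in the cold. The cold arrays were lower, and the change missed the threshold (-0.57, SE 0.16, adjusted p = 0.0533). It passed without either cold muscle array, with an adjusted p of 0.0366 in each case. Cyp4v3, a fatty acid hydroxylase whose human counterpart CYP4V2 is mutated in Bietti crystalline dystrophy, held 10.39, 10.39, 10.29 and 9.99 in brown fat. In muscle Cyp4v3 read 6.43 and 6.62 at room temperature and 6.96 and 8.36 in the cold, again highest on the second cold array. The muscle change was 1.14 (SE 0.39, adjusted p = 0.171), and 1.84 (adjusted p = 0.00169) without the first cold array or 0.44 (adjusted p = 0.301) without the second.

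The remaining fatty acid members did not pass in the cold in either tissue. Cyp4a10, a PPARα target in liver, read 6.56, 5.98, 6.41 and 6.35 in brown fat and was at background in muscle. Cyp4f13 stayed at 10.50 to 10.62 on all 4 brown fat arrays (-0.01, 95% interval -0.39 to 0.38). The pseudogene Cyp4b1-ps2 read 10.41, 10.49, 10.87 and 10.45 there, and whether its probe also binds transcripts of related genes was not tested. Cyp4x1 was above background in muscle only, at 5.71 to 6.09.

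The sterol enzymes and Cyp20a1 did not pass in the cold. Cyp51, the lanosterol demethylase of cholesterol synthesis, gave 8.75 and 8.33 in room-temperature brown fat and 8.99 and 9.07 in the cold. In muscle it read 5.72 and 5.79, then 5.92 and 6.55. The cold arrays were higher in both tissues, by 0.49 (SE 0.22, adjusted p = 0.187) and 0.48 (SE 0.22, adjusted p = 0.287). Cyp27a1, a mitochondrial sterol hydroxylase, changed by -0.05 and -0.35 in brown fat at its 2 probes (adjusted p = 0.857 and 0.45). Cyp20a1, whose substrate is unknown, changed by -0.53 (adjusted p = 0.102) and -0.44 (adjusted p = 0.0732) at its 2 tested probes, with the cold arrays lower at both. Without the first room-temperature brown fat array the first of these was -0.80 (adjusted p = 0.0376).

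**Figure D4:**
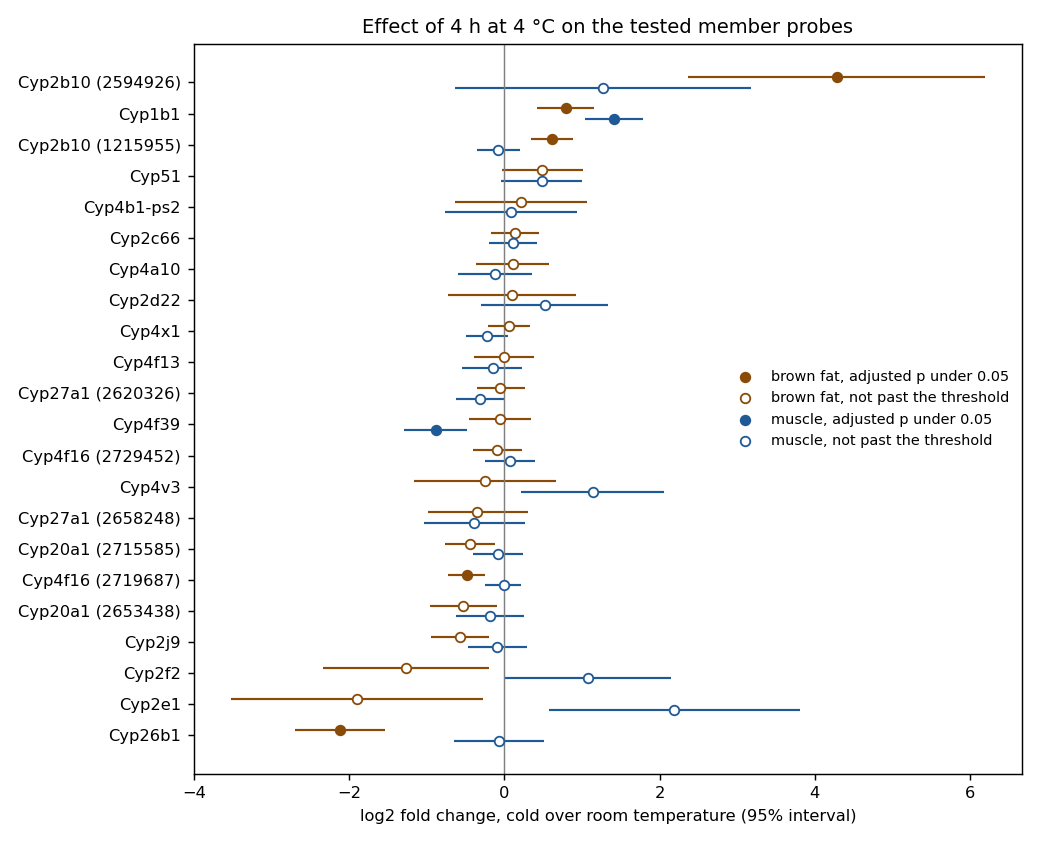
Log2 fold change of cold over room temperature for the 22 tested member probes in brown fat (brown) and muscle (blue), with 95% intervals; filled symbols have an adjusted p under 0.05. Cyp2b10 (probe ILMN_2594926) has the largest change in brown fat, 4.28, and Cyp26b1 the lowest, -2.12.

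Between the tissues at room temperature, 13 member probes of 11 genes were higher in brown fat and 4 probes of 3 genes lower, where 33.0% and 32.9% of all probes passed (65.9% in either direction). The groups did not overlap for 19 of 22 member probes, against 85% of all probes. The median log2 difference was 0.754 over the tested members and -0.005 over all tested probes. Under median scaling 7 member probes were higher in place of 13, with 38.2% of all called probes higher in place of 50.0%. The call was lost for Cyp1b1, Cyp2j9, Cyp4a10 and the tested Cyp20a1 and Cyp4f16 probes (adjusted p of 0.0792 to 0.313). It was gained for the bright Cyp2b10 probe (2.09, adjusted p = 0.00142). Cyp4x1, lower in brown fat, also lost its call (-0.78, adjusted p = 0.123). All brown fat arrays carried muscle fibre transcripts, the first cold one far less than the others, and the part of these in the tissue differences was not tested.

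Cyp4v3 had the largest difference among members, 3.87 on the log2 scale (SE 0.39, 14.6-fold, adjusted p = 0.000117). Cyp2d22 followed at 3.21 (SE 0.35, 9.24-fold), Cyp4b1-ps2 at 2.90 (SE 0.36, 7.46-fold) and Cyp51 at 2.79 (SE 0.22, 6.91-fold). Cyp2e1 was 6.25-fold higher (2.64, SE 0.69, adjusted p = 0.0114), a call lost without the first room-temperature array of brown fat (adjusted p = 0.0677) or of muscle (adjusted p = 0.0556). Cyp4f13 was 3.98-fold higher, and Cyp2j9 2.02-fold. The 2 Cyp20a1 probes were higher by 1.10 and 0.73. Cyp4a10, Cyp1b1 and the 2 Cyp4f16 probes were at background in muscle, so their differences are bounds of at least 1.52-fold, 1.35-fold, 1.18-fold and 1.06-fold. The last, for probe ILMN_2729452, was lost without the second array of brown fat (0.42, adjusted p = 0.0862) or of muscle (0.41, adjusted p = 0.0975).

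The genes higher in muscle were Cyp4f39, Cyp27a1 and Cyp4x1. Cyp4f39 was at least 7.9-fold higher there (log2 difference -3.40, SE 0.17, adjusted p = 7.31e-06). The Cyp27a1 probes read 10.09 and 10.11 against 11.51 and 11.35, and 7.52 and 7.88 against 9.42 and 9.38. Both were lower in brown fat, with log2 differences of -1.33 (SE 0.13) and -1.70 (SE 0.28). Cyp4x1 was at least 1.32-fold higher in muscle. The dim Cyp2b10 probe differed by -0.12 (SE 0.12, adjusted p = 0.4). Muscle was at background for the bright probe, so its difference is a bound of at least 3.12-fold, set by detection. The bright probe read higher in brown fat and missed the threshold (2.04, SE 0.81, 95% interval 0.13 to 3.95, adjusted p = 0.0587). It passed without either cold muscle array (adjusted p = 0.000317 in each case).

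In the cold, 11 member probes of 9 genes were higher in brown fat and 6 probes of 5 genes lower, where 34.2% and 29.6% of all probes passed (63.8% in either direction). The bright Cyp2b10 probe had the largest difference, 5.05 (SE 0.81, 33.1-fold, adjusted p = 0.00119). Its size rested on which cold muscle array was used, at 3.57 without the first and 6.53 without the second. The dim Cyp2b10 probe, at background in muscle, was higher by 0.57 (SE 0.12, adjusted p = 0.00369), a bound of 1.3-fold. Its call was lost under median scaling (0.44, adjusted p = 0.455). Cyp26b1, level between the tissues at room temperature (0.00, SE 0.25), was now 4.14-fold lower in brown fat (-2.05, SE 0.25, adjusted p = 0.000299). Cyp2f2 was also lower, with a log2 difference of -1.85 (SE 0.46, adjusted p = 0.00915), which was -1.19 (adjusted p = 0.0944) without the first cold brown fat and second cold muscle arrays. Cyp2e1 no longer passed (-1.44, SE 0.69, adjusted p = 0.104), but passed as lower in brown fat under median scaling (-1.72, adjusted p = 0.00197). With quantile normalization its difference was -2.50 without the first cold muscle array and -0.38 without the second. Cyp1b1 did not pass (0.16, SE 0.16, adjusted p = 0.396). Cyp51 (2.79), Cyp4b1-ps2 (3.02), Cyp2d22 (2.79), Cyp4v3 (2.48) and Cyp4f13 (2.14) stayed higher in brown fat. Cyp4f39, at background in brown fat, stayed at least 4.28-fold lower there, and both Cyp27a1 probes stayed lower (-1.07 and -1.66). Median scaling also removed the calls in the cold of the tested Cyp20a1 probes, Cyp2j9, Cyp4a10 and Cyp4x1 (adjusted p of 0.0668 to 0.826). Calls near the threshold depended on single arrays. Cyp2j9 (0.53, adjusted p = 0.0217) was lost without the first cold array of either tissue, with 0.36 and an adjusted p of 0.118 in each case. Cyp4x1 (-0.38, adjusted p = 0.0218) was lost without the first or second cold brown fat array (adjusted p = 0.0686 and 0.0637) or the first cold muscle array (adjusted p = 0.102). The second Cyp20a1 probe (0.38, adjusted p = 0.0454) was lost without either cold brown fat array (0.173 and 0.0636), either room-temperature muscle array (0.0711 each) or the second cold muscle array (0.212), all as adjusted p. Cyp4f16 probe ILMN_2729452 (0.32, adjusted p = 0.0761) passed without the second cold brown fat array (0.46, adjusted p = 0.0373).

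**Figure D5:**
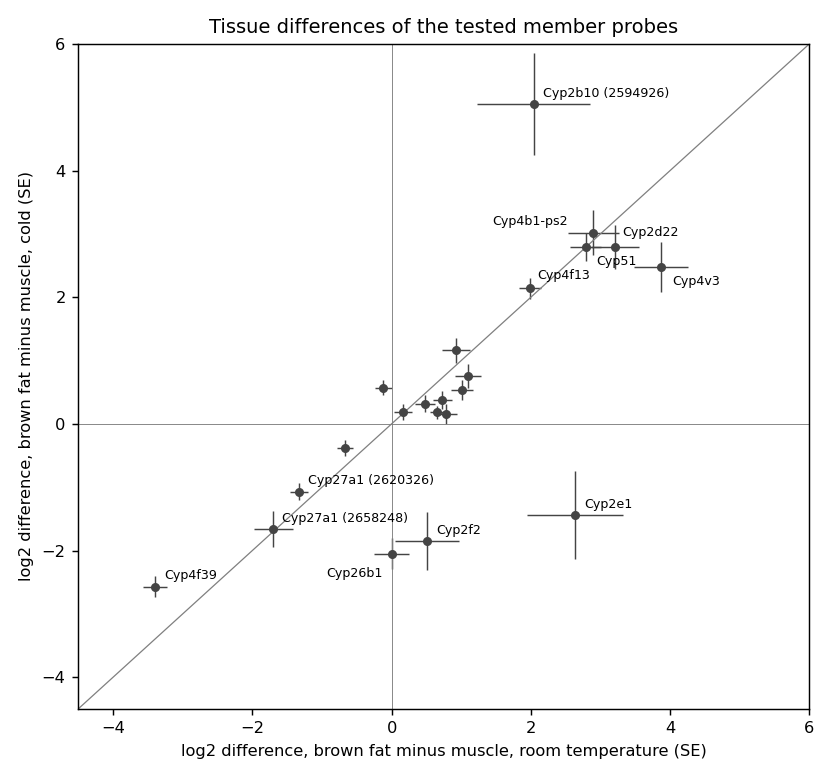
Log2 difference of brown fat minus muscle at room temperature (horizontal) and in the cold (vertical) for the 22 tested member probes, with SE bars and the line of equal values. Cyp2b10 (probe ILMN_2594926) lies above the line, at 2.04 and 5.05, and Cyp26b1 (0.00 and -2.05) and Cyp2e1 (2.64 and -1.44) lie below it.

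Genes that work with the P450 enzymes were read from lists chosen with earlier results of these data known. Beside the list counts, 7.79% of all tested probes rose and 7.49% fell in brown fat, and 1.56% and 1.88% in muscle. Of 5 tested electron transfer partners none rose or fell in the cold in either tissue by limma (0 also at an unadjusted p under 0.05), Cyb5a among them, which passes electrons to microsomal P450 enzymes. Of 10 tested heme genes 1 rose in brown fat, the heme oxygenase Hmox1, from 7.77 and 7.86 to 9.70 and 10.56 (log2 change 2.31, SE 0.50, adjusted p = 0.024). That call was lost without the first or second room-temperature array or the second cold array of brown fat. Alas1, the first enzyme of heme synthesis, changed by -0.01 (SE 0.12). None of the heme genes passed by limma in muscle (1 fell at an unadjusted p under 0.05).

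Of 11 tested nuclear receptors and partners, 1 rose and 1 fell in brown fat and 0 in muscle by limma (2 were higher and 1 lower at an unadjusted p under 0.05). The shares of all tested probes were 7.79% and 7.49% in brown fat and 1.56% and 1.88% in muscle. The vitamin D receptor Vdr was not above background at room temperature and rose at least 2.5-fold (5.50 and 5.29 against 7.12 and 6.69, adjusted p = 0.00419), a call lost under median scaling (adjusted p = 0.106). The retinoic acid receptor Rarg fell at least 1.71-fold (6.26 and 6.46 against 5.46 and 5.46, adjusted p = 0.00863), a call lost without the second room-temperature array and under median scaling (adjusted p = 0.447). The median change of the list was 0.10 in brown fat, against 0.02 over all tested probes.

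Of 14 tested eicosanoid and retinoid genes, 2 rose and 2 fell in brown fat and 1 rose in muscle, against 7.79%, 7.49% and 1.56% of all tested probes. The retinol carrier Rbp7 went from 8.62 and 8.31 to 10.93 and 10.84 in brown fat (2.42, SE 0.32, adjusted p = 0.00507). In muscle Rbp7 was at background at room temperature and rose at least 7.56-fold (8.03 and 9.14 in the cold, adjusted p = 0.00525), a call lost without either room-temperature array. The cold muscle arrays carried Ucp1 at 9.15 and 14.45, and the part of brown fat transcripts in this value was not tested. Dhrs9, a dehydrogenase of retinoids and steroids, rose from 6.71 and 6.31 to 8.97 and 8.13 in brown fat (2.04, SE 0.27, adjusted p = 0.00555). The lipoxygenase Alox12 fell at least 4.74-fold (7.93 and 7.81 against 5.54 and 5.68, adjusted p = 0.00131). Rdh10, which makes retinaldehyde from retinol, fell by 0.53 on the log2 scale (SE 0.10, adjusted p = 0.0148), and this was lost without either room-temperature array and under median scaling (adjusted p = 0.873). The median change of the list in brown fat was 0.02, the same as over all tested probes.

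Of 28 tested genes of conjugation, hydrolysis and transport, 1 rose and 3 fell in brown fat, and 3 rose and 3 fell in muscle, where the shares of all tested probes were 7.79% and 7.49% in brown fat and 1.56% and 1.88% in muscle. The glutathione transferase Gstt3 fell in brown fat, from 9.04 and 9.14 to 7.78 and 7.69 (-1.36, SE 0.11, adjusted p = 0.00153). It also fell in muscle, from 8.58 and 8.75 to 7.78 and 7.92 (-0.82, SE 0.11, adjusted p = 0.0179), a call lost without either room-temperature array. The exporter Abcc4 fell in brown fat by 0.77 on the log2 scale (SE 0.12, adjusted p = 0.00835), a call lost under median scaling (adjusted p = 0.426). The epoxide hydrolase Ephx1 (-0.65, adjusted p = 0.026) and Ugt1a2 (0.44, adjusted p = 0.0474) passed in brown fat but lost the call in 8 and 16 of 19 alternatives. In muscle the transferases Gsta3 (2.06, SE 0.34, adjusted p = 0.0279) and Mgst1 (1.89, SE 0.38, adjusted p = 0.0453) rose, and both were highest on the second cold array, at 9.83 and 11.40. Their calls were lost in 6 and 10 of 19 alternatives, each room-temperature muscle array left out among them. Sult1a1 rose as well (0.79, SE 0.13, limma adjusted p = 0.0297), a call lost in 9 of 19 alternatives. The part of brown fat transcripts in these muscle values was not tested. The median change of the list was -0.15 in brown fat and 0.11 in muscle.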

How the data were processed

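Each array's deposited table gave 1 intensity per probe, not normalized, with a detection value for each, named a detection p in the file headers. The deposited values behave as a score that is high for bright probes, so 1 minus the score was used as the detection p. The authors' second table of intensity values, 32.8% of them below 0, was used as an alternative, and how the authors normalized it is not given in the sources used here. Intensities were corrected by limma's normexp with negative controls inferred from the detection p (offset 16), quantile normalized and put on a log2 scale. Probes with a detection p under 0.05 on both arrays of a group (11946 of 24607) were fitted in limma 3.58.1 (R 4.3.3) as 4 group means over all 8 arrays. The 5 comparisons were tested with eBayes (4 residual and 3.24 prior degrees of freedom) and Benjamini-Hochberg adjustment over all tested probes, at 0.05. The fit was tested on simulated data.

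Members were tested probe by probe. Genes of the other lists were read from their brightest tested probe. Where the dimmer group was not above background on either array, the fold is a bound: the brighter group's mean against, per array, the higher of the lowest detected signal and the probe's own. Gene names came from GEO's platform annotation, updated by gene ID through RefSeq (GRCm38.p6); 20980 probes had 1 name. Members and lists were chosen with earlier results of these data known. All tested members are named, and for some comparisons that passed only the size of the difference is given. For other lists, up to 4 genes past the threshold per tissue are named by size of change. Array scan dates and slides were not used here. Replicate numbers follow the sample titles; the descriptions give the 2 cold muscle arrays the opposite numbers. Alternatives changed the scaling, background correction, offset, filter, probe choice, fit and arrays used.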

Additional observations from a re-analysis of the deposited data

Results flagged for a closer look

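For Cyp26b1 the cold effect in brown fat minus that in muscle was -2.05 on the log2 scale (limma adjusted p = 0.0354), so the difference between the cold effects passed its own test. The call was lost in 11 of 18 alternatives, among them median scaling, the authors' table, no filter and the replicate block. Both cold brown fat arrays were lower than both room-temperature arrays, and the muscle groups overlapped.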

How the results depend on the processing

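Over the alternatives, the changes in the cold of the members that passed in any setting, and of both Cyp2b10 probes, kept direction and side of the threshold in 131 of 161 values in brown fat and 105 of 128 in muscle. With a detection p under 0.01 required on all 8 arrays, 6707 probes were tested, and Cyp2b10, Cyp1b1, Cyp4f16 and Cyp4f39 were not among them. For cold in brown fat 0 members were higher and 1 lower (834 and 654 of all probes). For cold in muscle the counts were 0 and 0 (133 and 157 of all probes). Between tissues they were 5 and 2 at room temperature (2395 and 2335 of all probes) and 4 and 3 in the cold (2606 and 2066). A lower difference of cold effects was called for 2 members, where all probes gave 234 higher and 190 lower. Median scaling gave 1 higher in cold brown fat, 0 lower in cold muscle, and 7 and 6 higher in brown fat at room temperature and in the cold. It moved the median change of all probes to -0.11 for cold in brown fat, -0.19 for cold in muscle and -0.22 between tissues at room temperature, and called 46 probes higher and 154 lower in cold brown fat in place of 930 and 895. In cold muscle it called 53 and 29 in place of 186 and 224, and for the difference 11 and 36 in place of 195 and 205. Between tissues it called 1515 and 2450 at room temperature in place of 3942 and 3935, and 1271 and 2109 in the cold in place of 4086 and 3531. The groups compared alone gave 1 higher and 1 lower in cold brown fat (513 and 536 of all probes) and 0 lower in cold muscle (35). With 1 probe per gene, 1 member was lower in cold brown fat (823 of all probes). The authors' table and no filter each gave 0 lower in cold muscle (119 and 211 of all probes) and 0 for the difference. For that difference all probes gave 82 higher and 107 lower with the authors' table, and 188 and 167 without the filter. The authors' table put the bright Cyp2b10 probe in cold brown fat at 4.25 (adjusted p = 0.0607). The cause of these moves was not tested.

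With each array left out in turn, the number of calls changed for members and for all probes. These counts are not given, since the group concerned then holds 1 array. Without the first cold muscle array the change in muscle was 2.75 for Cyp2b10 and 1.15 for Cyp2d22, and the difference for Cyp2d22 -1.05. Without the second, the change in muscle turned to -0.22 for Cyp2b10 and -0.12 for Cyp2d22, and the difference for Cyp2d22 to 0.21. Without that array and the first cold brown fat array together these were -0.22, -0.12 and 0.27, and Cyp2e1 in the cold turned to 0.30 between tissues. When an array is left out, its partner is assumed to vary like the other groups.

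The labels do not say whether same-numbered arrays belong together. Deviations of same-numbered arrays from their group means correlated at -0.12 to 0.16 over the 6 pairs of groups, which cannot exclude a pairing. The sign of the values with cold muscle depends on its replicate numbers, on which titles and descriptions differ. With the replicate number as a block, the Cyp26b1 difference had an adjusted p of 0.0611, and Cyp2f2 passed in cold brown fat (-1.27, adjusted p = 0.031) and for the difference (-2.35, adjusted p = 0.0469). With 2 arrays per group and signals near background, changes of dim members such as Cyp4f16 and Cyp4x1 are little larger than the limit of detection.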
